A study of Mus musculus with 10 samples.

Results

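The *Barx1* cells were 1426 mesenchymal cells of the E11.5 mouse mandible that had at least 1 UMI (unique molecular identifier, which counts a captured RNA molecule) of *Barx1* and 0 UMIs of *Hand2*, *Alx1* and *Cited1*. They were taken from 5364 E11.5 cells that passed a mesenchyme gate, of which they made up 26.6% (95% interval 25.4 to 27.8). The gate kept cells with at least 700 genes, at most 20% mitochondrial UMIs, a UMI of at least 2 of the 4 genes *Prrx1*, *Twist1*, *Pdgfra* and *Col3a1*, and a UMI of at most 1 of the 6 genes *Cdh5*, *Kdr*, *Tyrobp*, *Fcer1g*, *Tnnt1* and *Epcam*. The 5364 cells came from 6573 cells that passed the filter on genes and mitochondrial UMIs, out of 8708 E11.5 barcodes and 22619 barcodes over the 3 stages. The study profiled wild type NMRI mouse embryos with droplet-based single-cell RNA sequencing of captured 3′ ends, without any treatment or mutation. The E11.5 tissue was the whole mandible, and the E14.5 and E16.5 tissue was the lower incisor bud. Per the labels, which name every sample developing incisor, E11.5 and E14.5 had 4 samples each and E16.5 had 2, but each stage was deposited as 1 matrix whose barcodes could not be assigned to a sample. Each stage was therefore treated as 1 sample. The methods describe more E11.5 mandibles, dissected from several litters, than the labels list samples for that stage, so how many embryos gave the E11.5 cells is uncertain. No test was possible, and the 95% intervals given with the values cover counting error only.

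In the mandibular arch, mesenchyme derived from the neural crest is divided by signals from the overlying epithelium into regions that express different transcription factors. FGF signals from the proximal oral epithelium are known to induce *Barx1*, a homeobox gene of the presumptive molar region, while BMP signals of the distal epithelium restrict it and maintain *Msx1* and *Msx2*. *Hand2* and the *Alx* genes mark the distal part of the arch, where the incisors form.

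The 3 markers given for these cells, *Barx1*, *Prrx1* and *Twist1*, were all detected, but all 3 had also served to choose the cells. *Barx1* stood at 713 CPM (the counts of a gene over a group's cells, scaled to 1000000 summed UMIs; 697 to 729), with a mean of 5.21 and a median of 3 UMIs per cell. *Prrx1* stood at 674 CPM and *Twist1* at 416 CPM. Of the position genes that had not been used, *Nr2f1*, *Nr2f2*, *Dlx1* and *Dlx2* were higher in these cells than in the other mesenchyme. *Meis2*, which is also a gene of the proximal arch, was lower. The cells are therefore called by the gene that chose them, and no position in the mandible is read into the name.

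The cells were chosen by measured values, the UMI counts of *Barx1* (chr13:48662998-48666507 on GRCm38), *Hand2*, *Alx1* and *Cited1*. The levels of these genes, and of the genes of the gate, therefore describe the choice. The other 3938 gated cells stood at 243 CPM of *Barx1*, 218 CPM of *Hand2*, 173 CPM of *Cited1* and 44.6 CPM of *Alx1*. They fell into 4 groups: 1622 cells with *Barx1* and a UMI of at least 1 of the other 3 genes, 1071 cells without *Barx1* and *Alx1* but with *Hand2* or *Cited1* (called aboral here, as a working name only), 474 cells without *Barx1* but with *Alx1* (called distal), and 771 cells with none of the 4 genes. Just inside the rule lay 343 cells with exactly 1 *Barx1* UMI, and just outside it lay 521 cells with *Barx1* and exactly 1 UMI over *Hand2*, *Alx1* and *Cited1*. Of the 1426 members 332 had exactly 2 of the mesenchyme genes of the gate, 583 had 3 and 511 had all 4, and 79 had a UMI of an excluded gene. Of the 1622 cells that *Barx1* shared with those genes, 1249 had *Hand2*, 1096 had *Cited1* and 190 had *Alx1*. Among gated cells without a *Barx1* UMI, 33.3% lacked *Hand2*, *Alx1* and *Cited1*. That share was 42.0% with 1 *Barx1* UMI, 46.7% with 2, 47.6% with 3 to 4, 49.2% with 5 to 9 and 51.1% with 10 or more. Median depth was 5354.5 UMIs in the cells without *Barx1* and 13078 UMIs in those with 10 or more. All of these are values that chose the cells, and nothing is read from them.

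A count of 0 depends on depth. The *Barx1* cells had a median of 6177.5 UMIs (952 to 54320) and 2247.5 genes, against 7966 UMIs in the cells that shared *Barx1* with the other genes, 7178.5 in the distal, 5508 in the aboral and 3719 in the cells with none of the 4 genes. When every cell was thinned at random to 2000 UMIs and the rule was applied again, 1378 of 4972 cells passed it. Of these, 960 had also passed at full depth, and 418 (30.3%) had *Hand2*, *Alx1* or *Cited1* at full depth. These 418 cells lay outside the rule at full depth. Background was gauged in 45 cells with immune markers (median 7760 UMIs) and 58 with endothelial markers (median 7467 UMIs). *Barx1* stood at 9.09 and 11.4 CPM there, with a UMI in 8.89% and 12.1% of cells. Whether free RNA in the droplets or doublets gave these UMIs was not tested.

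The largest ratios in the *Barx1* cells, besides *Barx1* itself, were those of the transcription factor genes *Shox2*, *Osr2* and *Pax9*. Genes were ranked where at least 10% of the cells of either group had a UMI and both groups together held at least 50 counts, by the log2 ratio of CPM with 10 CPM added to each side, and a log2 ratio of 0.5 in size was the fold for calling a gene higher or lower. Over the other gated mesenchyme 71 of 6884 ranked genes (1.03%) were higher in the *Barx1* cells, *Barx1* among them, and 116 (1.69%) were lower, *Hand2*, *Alx1* and *Cited1* among them. The median log2 ratio of all ranked genes was -0.03. A gene that is ranked through only the group where it is high had to differ, so these counts describe the ranked genes and no others. *Osr2* and *Pax9* were such genes, ranked through the *Barx1* cells alone, so their direction came with the ranking.

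*Shox2*, a homeobox gene of limb, palate and jaw joint mesenchyme, had the largest ratio besides *Barx1*. It stood at 137 CPM (130 to 145) in the *Barx1* cells, 39.7 CPM in the cells sharing *Barx1* with the other genes, 41.7 CPM in those with none of the 4 genes, 6.29 CPM in the aboral and 5.87 CPM in the distal cells, a log2 ratio of 1.97 (1.87 to 2.07) over all other gated cells. The interval of the *Barx1* cells did not touch that of any other group, while the aboral and distal cells overlapped, as did the cells sharing *Barx1* and those with none of the 4 genes. *Shox2* had a UMI in 35.8% of the *Barx1* cells and 10.3% of the others, or 18.9% and 3.82% at 2000 UMIs per cell. Its share in the immune- and endothelial-marked cells was 2.22% and 1.72%.

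*Osr2*, a zinc finger gene of the palate and of the tooth field, followed with a log2 ratio of 1.32 (1.19 to 1.46). Its level was 40.5 CPM in the *Barx1* cells, 23.1 CPM in the cells with none of the 4 genes and 11.8 CPM in those sharing *Barx1* with the other genes, and it lay under 5 CPM in the aboral (4.75) and distal (2.93) cells. *Pax9*, which is needed for teeth and palate, stood at 41.9 CPM (38.0 to 46.0) in the *Barx1* cells, a log2 ratio of 1.28. The remaining 4 groups held between 7.27 CPM (aboral) and 14.4 CPM (distal) of *Pax9*, so that for *Pax9*, unlike *Shox2* and *Osr2*, the distal cells were not among the lowest. No *Pax9* count fell in the immune- or endothelial-marked cells.

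*Sox9*, the master regulator of cartilage, was spread more widely. It stood at 202 CPM (194 to 211) in the *Barx1* cells and 183 CPM (169 to 198) in the cells with none of the 4 genes, then at 115, 59.3 and 29.8 CPM in the cells sharing *Barx1* with the other genes, the aboral and the distal cells. The log2 ratio over all other cells was 0.97. The remaining genes among the 12 highest were *Crym*, a thyroid hormone binding protein (1.25), *Zmat4* (1.22), the transcription factor *Ebf1* (1.11), the matrix protein gene *Smoc2* (1.10), the cadherin *Cdh6* (1.07), *Dlx6os1* (1.05), the semaphorin receptor *Plxna2* (0.96) and the protocadherin *Pcdh9* (0.95). *Zmat4*, *Smoc2* and *Pcdh9* were ranked through the *Barx1* cells alone, so their direction came with the ranking. *Ebf1* was also present in the endothelial-marked cells, at 69.6 CPM against 90.4 CPM in the *Barx1* cells. *Dlx6os1* is transcribed against *Dlx6*, whose own log2 ratio was 0.04. Whether the counting used the strand was not given in the sources used here, and without it reads of the overlapping pair cannot be told apart.

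**Figure D1:**
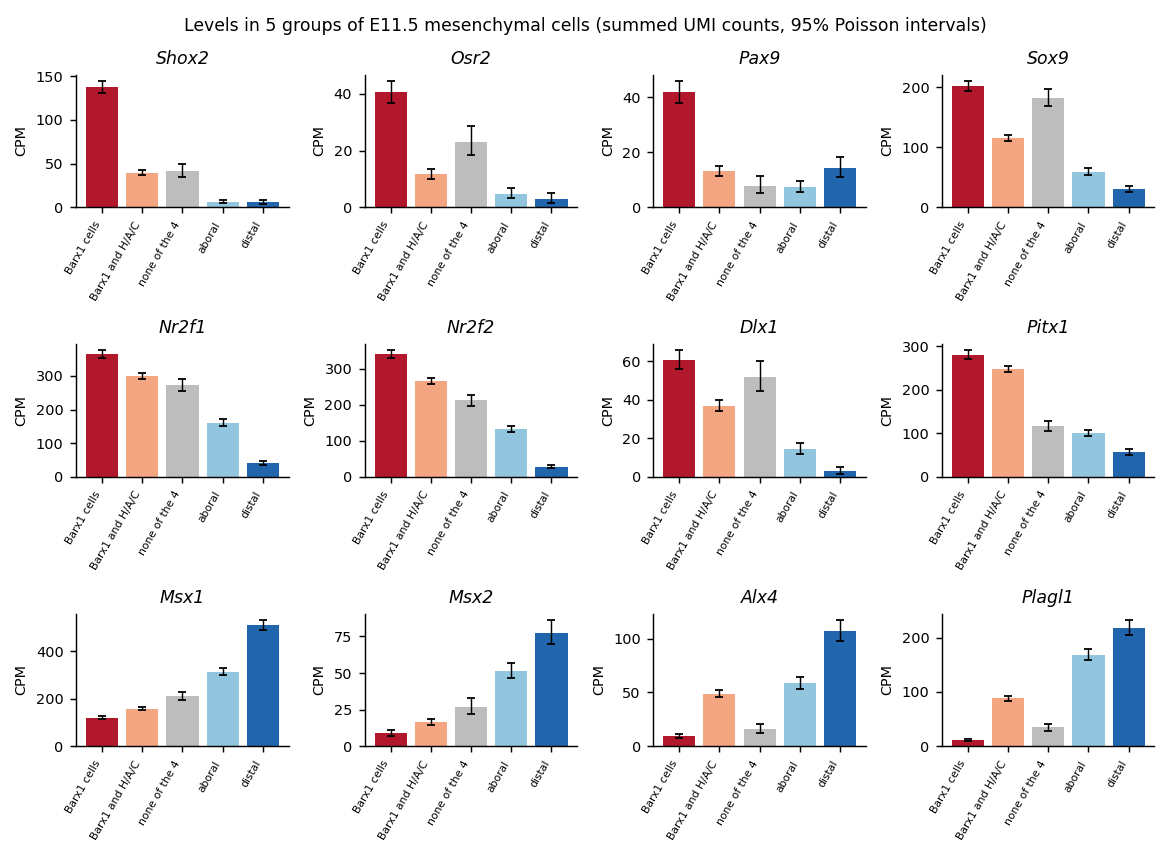
Level of 12 genes (CPM, vertical axes from 0) in the 5 groups of gated E11.5 cells, with bars for the summed UMI counts and 95% Poisson intervals that cover counting error only. "Barx1 and H/A/C" stands for cells that share *Barx1* with *Hand2*, *Alx1* or *Cited1*. *Shox2*, *Osr2* and *Pax9* are highest in the *Barx1* cells, while *Msx1*, *Msx2*, *Alx4* and *Plagl1* are lowest there.

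The sequence before the start of *Barx1* and of 2 of its leading companions is shown because all 3 are regulatory genes that were high in the same cells. The windows hold the 250 bases before the RefSeq start on GRCm38.p6, read 5′ to 3′ on the strand of the gene, with the homeodomain core TAAT (or ATTA, which is TAAT on the opposite strand) in capitals. The *Barx1* window is chr13:48662786-48663035 (+), the *Shox2* window chr3:66981772-66982021 (-) and the *Pax9* window chr12:56695221-56695470 (+).
Barx1: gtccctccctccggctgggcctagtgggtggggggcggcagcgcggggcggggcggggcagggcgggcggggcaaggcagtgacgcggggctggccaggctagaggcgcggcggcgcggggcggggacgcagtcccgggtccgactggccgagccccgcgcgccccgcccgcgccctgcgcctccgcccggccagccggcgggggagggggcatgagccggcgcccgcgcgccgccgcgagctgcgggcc
Shox2: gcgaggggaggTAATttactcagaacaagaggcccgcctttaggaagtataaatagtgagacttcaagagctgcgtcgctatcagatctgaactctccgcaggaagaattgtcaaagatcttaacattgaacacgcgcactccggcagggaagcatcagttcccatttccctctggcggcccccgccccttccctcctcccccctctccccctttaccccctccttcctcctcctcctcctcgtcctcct
Pax9: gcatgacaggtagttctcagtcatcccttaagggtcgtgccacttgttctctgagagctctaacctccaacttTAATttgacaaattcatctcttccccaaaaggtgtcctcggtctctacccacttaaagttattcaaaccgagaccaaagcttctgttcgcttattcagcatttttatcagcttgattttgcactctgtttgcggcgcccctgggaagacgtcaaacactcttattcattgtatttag
The *Barx1* window was 85.6% G and C and held 0 cores, while the *Shox2* window (55.6%) and the *Pax9* window (43.6%) held 1 each. RefSeq windows were listed for 8 of the 13 genes made up of *Barx1* and the 12 highest genes, and 5 of those 8 held a core. Over all 32851 windows of this length 54.9% held a core.

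Besides the genes of the rule, the 12 lowest ratios in the *Barx1* cells included those of 2 neighbours of *Hand2*. They also included those of 2 of the distal arch genes described next, *Hand1* and *Alx4*. *Hand2os1*, whose gene overlaps *Hand2* on the opposite strand (chr8:57281117-57324233 on GRCm38), had the lowest of these ratios, at 18.4 CPM against 215 CPM (log2 ratio -2.98). *5033428I22Rik*, which lies beyond the end of *Hand2* (chr8:57332118-57354580), stood at 5.38 against 66.2 CPM (-2.31). Without the strand, reads of *Hand2os1* and of *Hand2*, a gene of the rule, cannot be told apart. *Plagl1*, an imprinted zinc finger gene, stood at 11.8 CPM in the *Barx1* cells, 34.8 CPM in those with none of the 4 genes, 88.3 CPM in those sharing *Barx1* with the other genes, 168 CPM in the aboral and 218 CPM in the distal cells. Its log2 ratio was -2.56 (-2.71 to -2.41), and no group's interval touched another's. Further genes among the 12 lowest were *Mpped2* (-1.87), *Hand1* (-1.86), *Pax3* (-1.81), *Alx4* (-1.74), the netrin receptor *Unc5c* (-1.64), *9130024F11Rik* (-1.40) and *Igf1* (-1.40). *Hand1* was almost absent from the *Barx1* cells, at 0.768 CPM. *5033428I22Rik*, *Plagl1*, *Pax3*, *Unc5c* and *9130024F11Rik* had too few counts in the *Barx1* cells to be ranked through them. These genes were ranked through the other mesenchyme alone, so their direction came with the ranking, as did that of *Hand1* and *Alx4*.

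Of the 7 distal arch genes 4 were ranked and called lower in the *Barx1* cells than in the other mesenchyme (*Hand1*, *Alx4*, *Msx1* and *Msx2*), where 1.69% of all ranked genes were lower. *Hand1*, *Alx4* and *Msx2* had a UMI in under 10% of the *Barx1* cells and were ranked through the other mesenchyme, where they are high, so their direction came with the ranking, and among the 4 *Msx1* alone could have fallen on either side. The 3 that were not ranked stood at 7.68 against 14.7 CPM (*Bmp4*), 0.288 against 1.87 CPM (*Gata2*) and 0.384 against 8.61 CPM (*Gata3*). The median log2 ratio was -1.0 over all 7 and -1.48 over the ranked 4, against -0.03 for all ranked genes. *Msx1*, which is required for tooth development, stood at 119 CPM in the *Barx1* cells and 159, 211, 314 and 510 CPM in the cells sharing *Barx1* with the other genes, those with none, the aboral and the distal cells. Each step in that order exceeded the counting intervals. Of the 7 proximal arch genes 6 were ranked, of which 4 were higher and 2 lower, with a median of 0.63 (0.62 over all 7). Of all ranked genes 1.03% were higher and 1.69% lower. *Nr2f1* and *Nr2f2*, nuclear receptors of the proximal arch, stood at 364 and 340 CPM in the *Barx1* cells, against 40.4 and 28.7 CPM in the distal cells, with log2 ratios of 0.64 and 0.76 over all other cells. *Nr2f2* was also present in the endothelial-marked cells, at 176 CPM. The other 2 higher members were the homeobox genes *Dlx1* (60.8 against 28.8 CPM, 0.87) and *Dlx2* (55.2 against 32.4 CPM, 0.62). Both are expressed in the distal arch as well as the proximal arch. Without them 2 ranked members of the list were higher and 2 lower. Among the lower members, *Meis1* had a UMI in under 10% of the *Barx1* cells and was ranked through the other mesenchyme alone. Its direction therefore came with the ranking.

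*Meis2*, a homeobox cofactor, went the opposite way. It stood at 186 CPM (177 to 194) in the *Barx1* cells and between 356 and 417 CPM in the other 4 groups, a log2 ratio of -1.05. *Meis1* was lower as well (20.1 against 35.3 CPM, -0.59), but its direction came with the ranking, as given above. *Pou3f3*, a gene of the most proximal arch, was not ranked. It stood at 11.1 CPM in the *Barx1* cells and at 27.7 CPM in the cells with none of the 4 genes, where its share of cells was not high enough for ranking either. The 6 *Dlx* genes, which form a code along the arch, had 4 ranked members, with *Dlx1* and *Dlx2* higher and *Dlx5* (0.38) and *Dlx6* (0.04), the members of the more distal code, within the fold. Among all ranked genes 1.03% were higher and 1.69% lower. *Hox* genes, which are off in the mandibular arch, had 0 counts over all 7 members in the *Barx1* cells, which allows up to 0.288 CPM by the limit of 3 counts and 0.354 CPM by the exact Poisson interval.

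**Figure D2:**
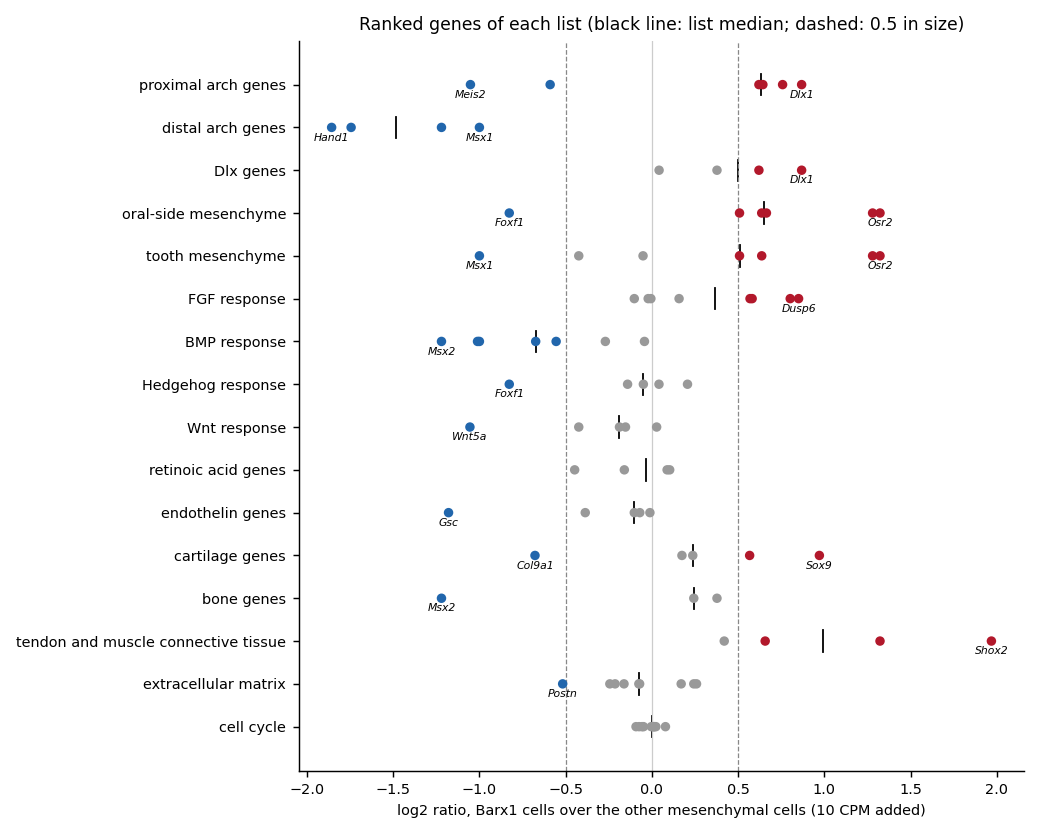
Log2 ratio (horizontal axis, 10 CPM added) of the ranked genes of 16 gene lists in the *Barx1* cells over the other gated mesenchyme, 1 point a gene. Red points are higher by 0.5 or more, blue points lower, the black line marks the list's median and the genes at either end of a list are named where they pass the fold. The 4 ranked distal arch genes lie left of the line at -0.5, 3 of them ranked through the other mesenchyme alone, and all 10 cell cycle genes lie close to 0.

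Of the 7 genes of the oral side of the jaw 6 were ranked, of which 5 were higher and 1 lower, with a median log2 ratio of 0.65 (0.64 over all 7). Of all ranked genes 1.03% were higher and 1.69% lower. *Osr2* and *Pax9* were ranked through the *Barx1* cells alone, and *Foxf1* through the other mesenchyme alone, so their direction came with the ranking. Besides *Osr2* and *Pax9* the higher members were *Pitx1* (280 against 173 CPM, 0.66) and the LIM homeobox genes *Lhx6* (39.7 against 21.9 CPM, 0.64) and *Lhx8* (102 against 69.0 CPM, 0.51). *Pitx1* stood at 248 CPM in the cells sharing *Barx1* with the other genes and at 56.9 to 116 CPM in the 3 groups without *Barx1*, so it went with *Barx1* whether or not *Hand2*, *Alx1* or *Cited1* was present. *Lhx8* did not follow that order, since the distal cells held 87.5 CPM of it and the cells sharing *Barx1* with the other genes 63.2 CPM. *Foxf1*, a target of Hedgehog signalling, was the member that was lower (8.16 against 22.2 CPM, -0.83). Of the 14 genes of tooth mesenchyme 7 were ranked, of which 4 (*Osr2*, *Pax9*, *Lhx6*, *Lhx8*) were higher, 1 (*Msx1*) lower and 2 within the fold.

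Genes of the FGF and BMP response lists were also called, some of them ranked through a single group. Of the 8 ranked of 10 FGF response genes 4 were higher and 0 lower, with a median log2 ratio of 0.36 (0.30 over all 10). Of all ranked genes 1.03% were higher and 1.69% lower. *Spry1* and *Spry2* were ranked through the *Barx1* cells alone, so their direction came with the ranking. The higher ones were *Dusp6*, a phosphatase that dampens ERK signalling (66.2 against 32.3 CPM, 0.85), the feedback inhibitors *Spry1* (23.3 against 9.12 CPM, 0.80) and *Spry2* (0.57) and the ETS factor *Etv1* (62.0 against 38.1 CPM, 0.58). *Etv5* (-0.10), *Spred1* (0.16), *Spred2* (-0.02) and the receptor *Fgfr1* (-0.01) lay within the fold, so the list did not move as a whole. *Dusp6* was not particular to mesenchyme, since it stood at 122 CPM in the endothelial-marked cells.

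Of the 7 ranked of 11 BMP response genes 5 were lower and 0 higher, with a median log2 ratio of -0.67 (-0.27 over all 11). Of all ranked genes 1.69% were lower and 1.03% higher. *Msx1* and *Msx2* (9.03 against 34.3 CPM, -1.22) are also members of the distal list. *Msx2* was ranked through the other mesenchyme alone, so its direction came with the ranking. The other 3 lower members were *Bambi*, a decoy receptor (17.3 against 45.0 CPM, -1.01), the inhibitor of differentiation *Id2* (176 against 286 CPM, -0.67) and the inhibitory Smad *Smad7* (39.4 against 62.5 CPM, -0.56). *Id1* (-0.27) and *Id3* (-0.04) lay within the fold.

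The remaining signalling lists moved little, set beside 1.03% higher and 1.69% lower among all ranked genes. Of the 5 ranked Wnt genes 1 was lower, the ligand *Wnt5a* (39.3 against 92.3 CPM, -1.05), while the target gene *Axin2* had a log2 ratio of 0.03. Of the 5 ranked endothelin pathway genes 1 was lower, the homeobox gene *Gsc* (49.2 against 124 CPM, -1.18), and the receptor *Ednra* stood at -0.10. *Gsc* was at 158 CPM in the cells sharing *Barx1* with the other genes, more than in any other group, and at 55.7 CPM in those with none of the 4 genes. The Hedgehog targets *Ptch1* (-0.05) and *Gli1* (-0.14) lay within the fold, as did all 4 ranked genes of retinoic acid signalling. *Foxf1*, also on the Hedgehog list, was lower, with a direction that came with the ranking, as given above. *Aldh1a2*, which makes retinoic acid, was not ranked. It was detected in 9.54% of the *Barx1* cells, just under the share needed for ranking, and stood at 20.6 CPM against 7.47 CPM.

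Differentiation genes were called in both directions, where 1.03% of all ranked genes were higher and 1.69% lower. Of 10 genes of tendon and muscle connective tissue 4 were ranked and 3 of them were higher (*Shox2*, *Osr2* and *Osr1*, 85.3 against 50.4 CPM, 0.66). *Osr2* was ranked through the *Barx1* cells alone, so its direction came with the ranking. The tendon factor *Scx* (23.9 against 15.4 CPM, 0.42) lay within the fold. *Tnmd*, a gene of mature tendon, had 0 counts. *Meox2*, a homeobox gene of muscle and palate, was not ranked and stood at 15.1 CPM (12.8 to 17.6) against 3.42 CPM. Of 12 cartilage genes 5 were ranked: *Sox9* and *Col2a1* (151 against 98.7 CPM, 0.57) were higher, *Col9a1* (65.1 against 110 CPM, -0.68) was lower, and *Sox5* (0.24) and *Col11a1* (0.17) lay within the fold. *Acan*, which marks mature cartilage, had 0 counts. Of 9 bone genes 3 were ranked and 1, *Msx2*, was lower, with a direction that came with the ranking. *Runx2* was too rare to be ranked (13.5 against 10.8 CPM) and *Sp7* stood at 0.288 CPM. Extracellular matrix genes had 8 of 9 ranked members within the fold, and *Postn* was lower (-0.52).

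The cell cycle did not separate the groups. All 10 genes of the list were ranked and all 10 lay within the fold, and their summed level was 3994 CPM in the *Barx1* cells and 4021 CPM in the other mesenchyme, a log2 ratio of -0.01 (-0.03 to 0.01).

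Of the groups compared, the distal cells had the most genes past the fold. Over the distal cells 168 of 7338 ranked genes (2.29%) were higher and 253 (3.45%) lower. Besides *Barx1*, the 6 highest were *Shox2* (log2 ratio 3.21), *Nr2f2* (3.18), *Nr2f1* (2.89), *Ebf1* (2.62), *Dlx1* (2.45) and *Sox9* (2.42). *Gata3*, not ranked over all other cells, stood at 0.384 CPM against 30.5 CPM in this comparison (-1.96), and *Bmp4* at 7.68 against 33.8 CPM (-1.31). Both were ranked here through the distal cells alone, so that their direction came with the ranking. *Shox2*, *Ebf1* and *Dlx1* were ranked here through the *Barx1* cells alone, with the same limit. Over the aboral cells 106 of 6606 ranked genes (1.60%) were higher and 135 (2.04%) lower. Besides *Barx1*, the highest were *Shox2* (3.18), *Zmat4* (1.79), *Osr2* (1.78), *Crym* (1.70), *Cdh6* (1.68) and *Ebf1* (1.63). *Shox2*, *Zmat4*, *Osr2*, *Crym* and *Cdh6* were ranked there through the *Barx1* cells alone, so their direction came with the ranking. The 2 comparisons share the *Barx1* cells, so they are given side by side and not as support for each other. *Nr2f1* and *Nr2f2* had ratios of 1.13 and 1.29 over the aboral cells, *Sox9* 1.62 and *Msx1* -1.32, against 2.89, 3.18, 2.42 and -2.00 over the distal cells.

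The most alike groups were those that differed from the rule by a single condition. Over the cells sharing *Barx1* with the other genes 59 of 7483 ranked genes (0.788%) were higher and 93 (1.24%) lower, and over the cells with none of the 4 genes 44 of 6468 (0.680%) were higher and 48 (0.742%) lower. *Shox2* was higher than in either, with log2 ratios of 1.57 and 1.51, and so was *Pax9*, with 1.17 and 1.55. Against the cells with none, *Pax9* was ranked through the *Barx1* cells alone, so its direction there came with the ranking. Other genes took the side of only 1 of the groups. *Pitx1* was 0.17 over the cells sharing *Barx1* but 1.20 over those with none of the 4 genes, while *Sox9* was 0.76 over the former and 0.14 over the latter. *Gsc* was -1.50 over the former and -0.15 over the latter.

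Counts within the lists changed with the group compared, and so did the shares over all ranked genes. Those shares were 2.29% higher and 3.45% lower over the distal cells, and 1.60% and 2.04% over the aboral cells. They were 0.788% and 1.24% over the cells sharing *Barx1*, and 0.680% and 0.742% over the cells with none of the 4 genes. Of the ranked proximal arch genes 4 of 6 were higher over the distal and over the aboral cells. Over the cells sharing *Barx1* (median log2 ratio 0.30) 1 of 6 was higher and 2 lower, as over the cells with none of the 4 genes (0.11). Wherever *Meis1* was ranked, it was ranked through the comparison cells alone, so its direction came with the ranking. Of the distal arch genes *Msx1* alone had a UMI in at least 10% of the *Barx1* cells, and the others were ranked only where the comparison cells held them, so counts of ranked members are not given. The median log2 ratio over all 7 was -2.00 over the distal cells, -1.32 over the aboral cells, -0.38 over the cells sharing *Barx1* and -0.41 over the cells with none. The BMP response list had 7 of 7 ranked genes lower over the distal cells (median -1.32) and 5 of 7 over the aboral cells. It had 1 of 7 lower over the cells sharing *Barx1* (-0.38) and 2 of 6 over the cells with none (-0.32). Wherever *Msx2* was ranked, it was ranked through the comparison cells alone, so its direction in these counts came with the ranking. *Bambi* was lower in all 4 comparisons, while *Id2* and *Smad7* lay within the fold over the cells sharing *Barx1* (-0.47 and -0.24) and over those with none (-0.35 and -0.30). The FGF response list had 4 of 8 ranked genes higher over the aboral cells and over the cells sharing *Barx1*, 2 of 8 over the cells with none, and 3 higher and 2 lower of 9 over the distal cells.

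Among cells without *Hand2*, *Alx1* and *Cited1*, the number of *Barx1* UMIs went with other genes. There were 771, 343, 225 and 858 such cells with 0, 1, 2 and at least 3 *Barx1* UMIs, with median depths of 3719, 4251, 5402 and 7213 UMIs. *Shox2* stood at 41.7, 55.6, 116 and 161 CPM in that order, and at 50.9, 109, 114 and 135 CPM when each cell was thinned to 2000 UMIs before it was assigned. The thinned bins held 1680, 687, 343 and 348 cells, so they are not the same cells as the bins at full depth. After thinning, the intervals of *Shox2* at 1, 2 and at least 3 *Barx1* UMIs overlapped, and only that at 0 lay apart. *Pax9* went from 7.71 CPM without *Barx1* to 52.5 CPM with at least 3 UMIs, and from 13.1 to 57.5 CPM after thinning. *Pitx1* went from 116 to 318 CPM, and from 153 to 345 CPM after thinning.

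*Osr2* had another shape. It was highest at 1 and 2 *Barx1* UMIs (54.5 CPM in each) and stood at 34.6 CPM with 3 or more, against 23.1 CPM without *Barx1*, and after thinning its intervals in all 4 bins overlapped from 1 bin to the next. *Msx1* and *Meis2* went down, from 211 to 100 CPM and from 373 to 134 CPM, or from 220 to 66.1 CPM and from 341 to 152 CPM after thinning. Part of each of these differences lay among the *Barx1* cells themselves, since *Meis2* stood at 346 CPM in those with 1 *Barx1* UMI.

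**Figure D3:**
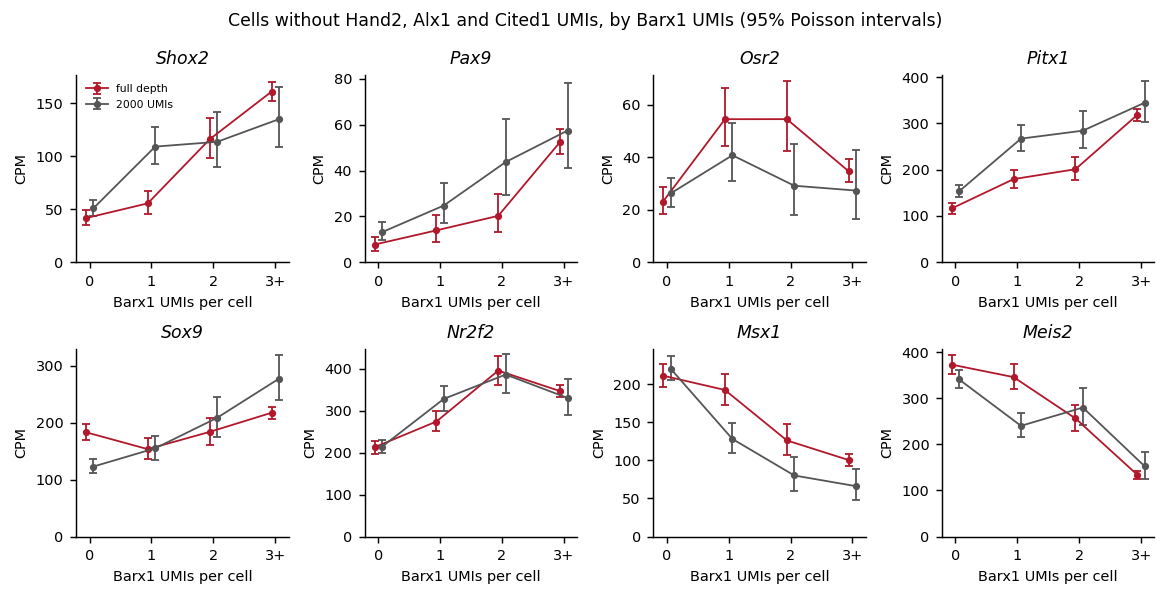
Level of 8 genes (CPM, vertical axes) in gated cells without *Hand2*, *Alx1* and *Cited1* by their *Barx1* UMIs (horizontal axes), at full depth (red) and with each cell thinned to 2000 UMIs (grey), with 95% Poisson intervals. *Shox2*, *Pax9* and *Pitx1* are higher with 3 or more *Barx1* UMIs than with none, *Msx1* is lower, and *Osr2* peaks at 1 to 2 UMIs at full depth.

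Within the *Barx1* cells, 10 pairs of these genes were examined for cells that held both, at 2000 UMIs per cell (1337 cells), and the intervals of 4 pairs were apart. *Osr2* had a UMI in 15.1% of the cells with *Shox2* (38 of 252) and 5.81% of those without it (63 of 1085). *Osr1* was found in 57 of the 252 cells with *Shox2* and 119 of the 1085 without it. *Col2a1* was found in 32.6% of cells with *Sox9* and 20.2% of those without. *Pax9* was found in 10.4% of cells with *Sox9* and 5.35% of those without. The intervals of the other 6 pairs overlapped. *Pax9* was found in 8.73% of cells with *Shox2* and 6.27% of those without, *Sox9* in 23.8% and 28.1% of the same cells, and *Osr2* in 8.89% of cells with *Pax9* and 7.46% of those without. *Lhx8* was found in 25.6% of cells with *Pax9* (16.9 to 35.8) and 14.9% of those without (13.0 to 17.0), and its pairs with *Osr2* and *Shox2* also overlapped. These shares are of cells from 1 matrix and describe it only.

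Clusters made without the 4 genes of the rule spread the *Barx1* cells over several groups. Of 6 clusters of the gated cells, cluster 0 (1458 cells) was led by *3110099E03Rik*, *Nr2f1*, *Shox2*, *Emx2*, *Nr2f2* and *Ebf1* and held 45.7% of the *Barx1* cells, which made up 44.7% of it (42.1 to 47.3). Cluster 1 (1130 cells), led by *Ung*, *Cdc6*, *Snhg18*, *Lsp1*, *2810001G20Rik* and *2410018L13Rik*, held 29.2% of the *Barx1* cells and consisted of them to 36.8%. Its median depth was 4680.5 UMIs against 7860 in cluster 0, and its summed cell cycle level 1857 against 4729 CPM. In cluster 2, led by *Msx1*, *Pax3* and *Msx2*, they made up 13.1%, and in clusters 3 and 4, both led by *Plagl1*, 5.28% and 6.77%. Cluster 5 (481 cells) was led by globin genes, had a median of 1987 UMIs, and consisted of *Barx1* cells to 29.9%. The cells of the rule were thus not a cluster of their own. At a finer resolution (12 clusters), the cluster richest in them held 435 cells, 72.9% of them *Barx1* cells.

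**Figure D4:**
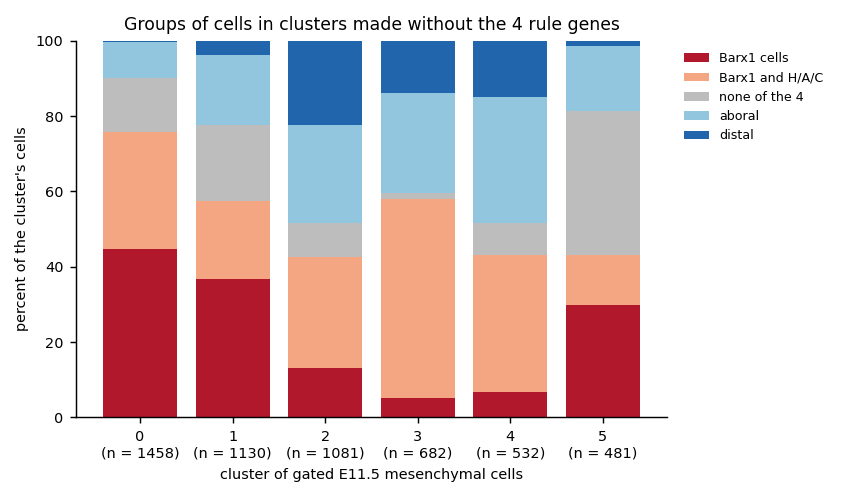
Share of the 5 groups of gated E11.5 cells (percent of each cluster's cells, vertical axis) in 6 clusters made without *Barx1*, *Hand2*, *Alx1* and *Cited1*, with the number of cells under each bar. The *Barx1* cells make up 44.7% of cluster 0, 36.8% of cluster 1 and 5.28% of cluster 3.

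The *Barx1* cells clustered alone gave 3 subclusters, whose genes are described and not tested, since the same genes formed them. Subcluster 1 (471 cells, 33.0%) had *Pax9*, *Peg3*, *Asb4*, *Crym* and *Nnat* among its leading genes. *Pax9* stood at 72.9 CPM there, 28.7 CPM in subcluster 0 and 9.98 CPM in subcluster 2, and *Pitx1* (377, 224 and 193 CPM), *Dusp6* (98.7, 53.6 and 32.1 CPM) and *Barx1* itself (868, 815 and 421 CPM) took the same order. Subcluster 2 (391 cells, 27.4%) was led by *Hbb-bs*, *3110099E03Rik*, *Meis1*, *Sema5a*, *Dkk2* and *Zfp503*. It held the most *Osr2* (73.8 CPM, against 12.2 CPM in subcluster 1), *Meis2* (317 against 100 CPM) and *Nr2f2* (475 against 242 CPM). *Hbb-bs* was found in 8.44% of the cells of subcluster 2 and 9.13% of those of subcluster 1, so its 89.5 CPM in subcluster 2 came from few cells. *Shox2* did not divide them as *Pax9* and *Osr2* did, with 147, 122 and 150 CPM in subclusters 0, 1 and 2.

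Subcluster 0 (564 cells, 39.6%) was led by 5 globin genes and *Igfbp5*. Globin genes have near-identical copies, such as *Hba-a1* and *Hba-a2*, between which reads cannot be divided with certainty. It was the shallowest, with a median of 4323 UMIs against 7761 and 7368, and its summed cell cycle level was 1813 CPM against 4392 and 5178 CPM. *Hbb-y* stood at 1386 CPM there, against 453 and 591 CPM, and had a UMI in 98.8% of its cells, 98.3% and 97.9% of the cells of the others. The part of depth and cell cycle in this division was not tested.

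**Figure D5:**
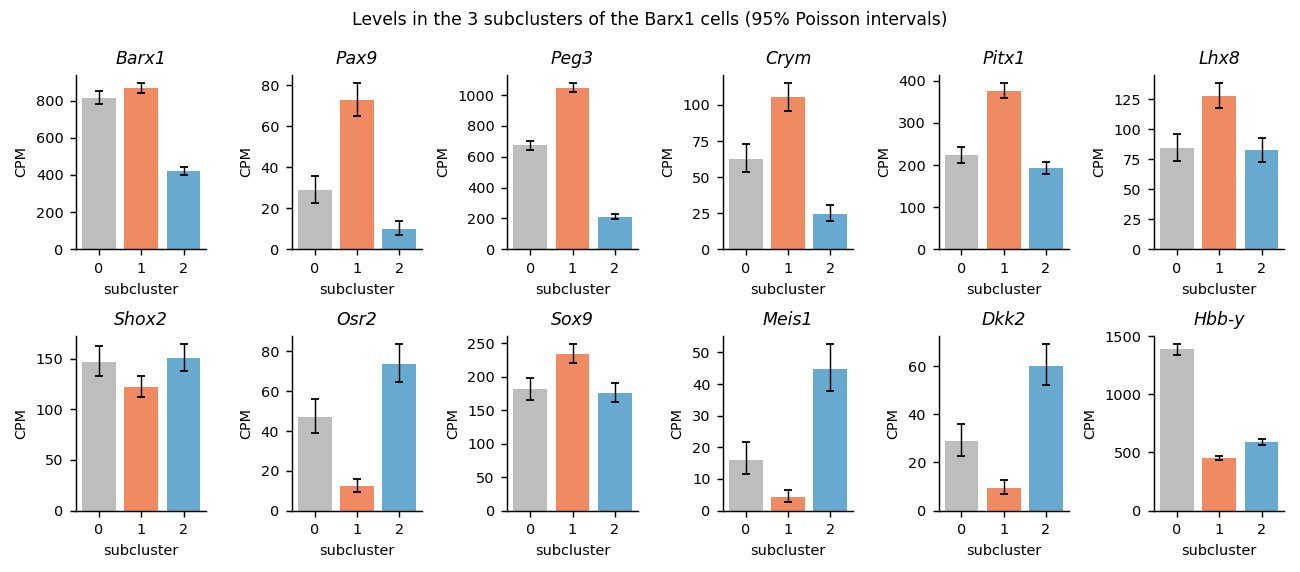
Level of 12 genes (CPM, vertical axes from 0) in the 3 subclusters of the *Barx1* cells, with 95% Poisson intervals. *Pax9*, *Peg3*, *Crym* and *Pitx1* are highest in subcluster 1, *Osr2*, *Meis1* and *Dkk2* in subcluster 2 and the globin gene *Hbb-y* in subcluster 0, while *Shox2* lies between 122 and 150 CPM in all 3.

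Markers of other cell types were at or near 0 in the *Barx1* cells, with the exception of globins. The 4 immune markers that the gate had not used summed to 0.384 CPM, with *Ptprc* at 0. The 4 endothelium markers outside the gate summed to 9.41 CPM (12.3 CPM in the other mesenchyme), those of epithelium to 5.67 CPM, those of muscle to 3.27 CPM and those of glia and neural crest to 12.7 CPM. Neuron markers summed to 9.99 CPM, mostly *Tubb3*, against 16.4 CPM. The 8 erythroid markers summed to 1530 CPM against 2187 CPM, a log2 ratio of -0.51. Of these markers 4 of the 6 ranked were lower, where 1.69% of all ranked genes were lower. *Hbb-y*, the most abundant, stood at 731 CPM in the *Barx1* cells, 568 CPM in the distal cells and 1554 CPM in the cells with none of the 4 genes, and was found in 98.4% of the *Barx1* cells and 97.5% of the others. Its part in the other results was not tested.

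Cells of this kind were all but absent from the later incisor buds. The same rule found 8 of 4014 gated cells at E14.5 (0.199%, 0.0861 to 0.392) and 2 of 2406 at E16.5 (0.0831%, 0.0101 to 0.300). *Barx1* stood at 360 CPM in the gated mesenchyme of E11.5, 4.32 CPM at E14.5 and 0.782 CPM at E16.5, with a UMI in 56.8%, 1.27% and 0.582% of cells. Median depth in the gated cells was 6212, 3539.5 and 6273.5 UMIs, so the shares are not at equal depth. The E14.5 level (3.39 to 5.43) overlapped those of the immune-marked (2.48 to 23.3) and endothelial-marked cells (4.91 to 22.4) of E11.5, and the E16.5 level (0.438 to 1.29) lay below both. Those marked cells are of E11.5 alone, so they do not give the background of the later matrices. *Pitx1* (199, 26.2 and 11.7 CPM) and *Nr2f1* (263, 0.467 and 1.82 CPM) were also lower in the buds. *Pax9* (18.9, 80.8 and 146 CPM), *Osr2* (17.7, 64.7 and 98.6 CPM) and *Alx1* (33.5, 155 and 173 CPM) were higher there. Whole mandibles were taken at E11.5 and incisor buds later, so stage, tissue and sample cannot be told apart. The matrices shared 13 barcodes between E11.5 and E14.5, 17 between E11.5 and E16.5 and 16 between E14.5 and E16.5.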

How the data were processed

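The deposited values are UMI counts, 1 matrix per stage over 32285 genes, which the authors obtained by running Cell Ranger on 3′ droplet libraries (10x Genomics) and left unnormalized. The submitters' processing notes name Cell Ranger 4.0.0 and the build mm10. The E11.5 matrix summed to 49264075 UMIs, the E14.5 matrix to 31670249 and the E16.5 matrix to 42895059, and the called barcodes had not yet been filtered. The filter (700 genes or more, mitochondrial UMIs up to 20%) follows the study. For each group of cells, counts were summed and scaled to CPM, with exact Poisson intervals for levels, conditional binomial intervals for log2 ratios (10 CPM added) and exact Clopper-Pearson intervals for shares, all at the 95% level and for counting error only. Gated cells were scaled to 10000 counts, log transformed and clustered without *Barx1*, *Hand2*, *Alx1* and *Cited1* (2000 variable genes, 20 principal components, 15 neighbours, Leiden resolution 0.4) in scanpy 1.11.5 with leidenalg 0.10.2, and the *Barx1* cells alone in the same way. Python 3.11.15, numpy 2.4.6 and scipy 1.17.1 gave the other values, and ranking was tested on simulated counts. The study merged samples with a batch correction, which was not used here because no barcode could be given a sample. Scrublet's own threshold called 0 of 6573 cells doublets, so doublets were kept, and leaving out the 290 gated cells at or above the score that bounds the highest 5% of gated cells, ties included, was tried as an alternative. Named genes are those of the rule, those of 25 gene lists, the 12 highest and 12 lowest ratios over the other gated mesenchyme, the 6 highest over the distal and aboral cells and the 6 leading genes of each cluster. A few of these genes are not reported here and were left out of the lists. The members, the lists and the rule were chosen with earlier results of these data known. Gene positions are on GRCm38 (GENCODE vM21) and promoter sequences from RefSeq (GRCm38.p6). Alternatives changed the filter on cells, the gate, the *Barx1* threshold, the depth, the comparison cells, the CPM added, the weighting of cells, doublets, the filter on low genes, the cell cycle and the cluster resolution.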

Additional observations from a re-analysis of the deposited data

How the results depend on the processing

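The share of *Barx1* cells among gated cells lay between 26.8% and 27.7% under the stricter filter on cells, the stricter gate, thinning and the doublet filter, but was 20.2% with at least 2 *Barx1* UMIs and 37.1% among the 89 gated cells without a UMI of the cell cycle list (33 of them *Barx1* cells). The 71 genes higher than in the other mesenchyme became 25 after thinning to 2000 UMIs, where 2878 genes in place of 6884 were ranked, 126 against cells with *Hand2*, *Alx1* or *Cited1* and no *Barx1*, 20 with 50 CPM added and 37 among cells without cell cycle UMIs, where only 692 genes were ranked and the share called higher was 5.35% in place of 1.03%. The 116 lower genes became 32 after thinning and 46 with 50 CPM added. Every other alternative left both counts within 1.5 times, but the share called lower was 11.99% of the 692 genes ranked in cells without cell cycle UMIs, against 1.69%. Of the 58 genes past the fold that the naming rule gave, all 58 kept their direction under every alternative but the cells without cell cycle UMIs, and between 36 (50 CPM added) and 58 stayed past the fold. In those 89 cells *Dlx2* (-2.11), *Lhx8* (-0.75) and *Smad7* (0.83) turned, as did the median of the proximal arch genes list (-0.26). The cause was not tested. Over the distal cells, the 168 higher genes became 60 with 50 CPM added and 66 without cell cycle UMIs, and the 253 lower genes 445 with 1 CPM, 87 with 50 CPM and 36 without cell cycle UMIs. Over the aboral cells, the 106 higher genes became 49 after thinning, 165 with 1 CPM, 33 with 50 CPM and 31 without cell cycle UMIs, and the 135 lower genes 58, 55 and 30 after thinning, with 50 CPM and without cell cycle UMIs. These alternatives for the distal and aboral cells, and those for the later stages, were added after the data had been seen. The share of *Barx1* cells in the richest cluster was 45.7% at a resolution of 0.2 and 72.9% at 0.8. With at least 2 *Barx1* UMIs, the share of cells passing the rule at E14.5 was 0.0747%. The share of cells passing the rule at E16.5 was 0% with that threshold and with the stricter gate. The log2 ratio of the summed cell cycle list in *Barx1* cells lay between -0.01 and 0.01 in each of the settings it was computed in. No paired analysis was possible because the barcodes of a stage could not be assigned to the labelled samples, and for the same reason no sample could be left out in turn.

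The main limits are that each stage is a single matrix, so the spread between embryos is unknown, that a count of 0 of *Hand2*, *Alx1* or *Cited1* at a median of 6177.5 UMIs does not show that a cell lacks the RNA, and that *Barx1* UMIs were also found in 8.89% of immune-marked and 12.1% of endothelial-marked cells.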

Other observations

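Compared with the cells that had none of the 4 genes, the *Barx1* cells were also higher for the Wnt antagonist *Sfrp2* (log2 ratio 1.32), the cell cycle inhibitor *Cdkn1c* (1.20), *Osr1* (1.35) and the noncoding RNA *H19* (0.93), and lower for the homeobox gene *Emx2* (-1.60) and the chemokine *Cxcl14* (-1.48). *Sfrp2*, *H19* and *Cxcl14* were named after their values had been seen. Within the *Barx1* cells *Cdkn1c* stood at 1130 CPM in subcluster 1, 1015 CPM in subcluster 0 and 538 CPM in subcluster 2, *Peg3* at 1049, 673 and 212 CPM, and *Nnat* at 1078, 700 and 306 CPM.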
